A study of Mus musculus with 4 samples.

Results

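Injury of adult articular cartilage was examined by comparing gene expression in injured and sham-operated cartilage of adult mice. The comparison used every gene of the table: of 24532 genes listed, 18181 were above 0 in at least 1 of the 4 libraries of the study and counted as measured, and 17240 of them were above 0 in at least 1 of the 2 adult libraries. All mice were wild type C57BL/6. The 4 libraries were young sham (3 weeks old), young injured (3 weeks old), adult sham and adult injured cartilage, and each was made from 1 pool, of 10 mice for injured and 5 mice for uninjured cartilage. The adult mice are given as 12 weeks old in the sample titles and as 14 weeks old in another label, and the study's methods give a younger age than either. Injured cartilage was collected 3 days after surgery, whereas the adult sham label covers days 3 to 14. The labels call the operation DMM, and the study's methods describe a full-thickness cartilage injury made with a needle in the groove of the femur on which the patella glides. The labels give the cell type as chondrocyte, but dissected cartilage was used, and the study notes that it could not be freed fully of other tissue. With 1 library per group there is no replicate check on any difference, so no p-value, standard deviation or standard error is given.

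Adult articular cartilage has no vessels and few cells, the chondrocytes, which hold a matrix of type II, IX and XI collagen and of the proteoglycan aggrecan. The most superficial layer makes the lubricant proteoglycan 4, and the deepest layer turns hypertrophic and mineralizes. An injury through the whole thickness reaches the bone marrow below, so that blood cells, marrow cells and synovial cells can enter the defect. In RNA from whole tissue, fewer cells of a type and less RNA per cell cannot be told apart, and this holds for every list of cell type markers given here.

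The files hold FPKM, the number of fragments per kilobase of transcript, scaled to the mapped fragments of the library. Values of different genes are thus on a scale per length. Changes are given as log2 ratios of FPKM + 1, adult injured over adult sham, where 1 is 2-fold. The added 1 FPKM understates changes of low genes. The adult sham library stood apart from the others. Its 10 most abundant genes took up 26.5% of all FPKM against 14.7% to 17.5% in the other 3 libraries, and its median-of-ratios factor was 0.809 against 1.02 to 1.11. Median-of-ratios scaling divides each library by such a factor, so that the typical gene is level between libraries. It lowered the adult log2 ratio of abundant genes by 0.34 and moved the median of all measured genes from 0.14 to 0. Most adult ratios below are therefore followed, in parentheses, by the scaled value. The labelled cell type was seen in both adult libraries: all 11 measured chondrocyte markers were above 0, among them Col2a1, the main cartilage collagen, at 3173 FPKM in adult sham and 3749.7 FPKM in adult injured cartilage, and Sox9, the transcription factor that sets chondrocyte identity, at 31.2 and 31.4 FPKM. If the smallest steps of the low values stand for single fragments, the adult sham library held about 30900000 fragments and the adult injured library 25600000.

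At a threshold of 2-fold, 1255 genes (6.90% of those measured) were higher in injured than in sham adult cartilage, and 266 genes (1.46%) were lower. After median-of-ratios scaling 802 genes (4.41%) were higher and 527 (2.90%) lower, and these included every one of the 266 genes that were lower as deposited, whereas each of the 802 was also among the 1255. Just inside the threshold were Picalm, from 10.1 to 21.3 FPKM, and Tpd52l1, from 7.45 to 3.22 FPKM, and just outside it Myh9, from 15.1 to 31.2 FPKM, and Sparc, from 22039 to 11027 FPKM. Among the higher genes, 33 were listed at 0 in adult sham cartilage, and among the lower genes 8 were listed at 0 in adult injured cartilage. No fold is given for such genes.

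**Figure D1:**
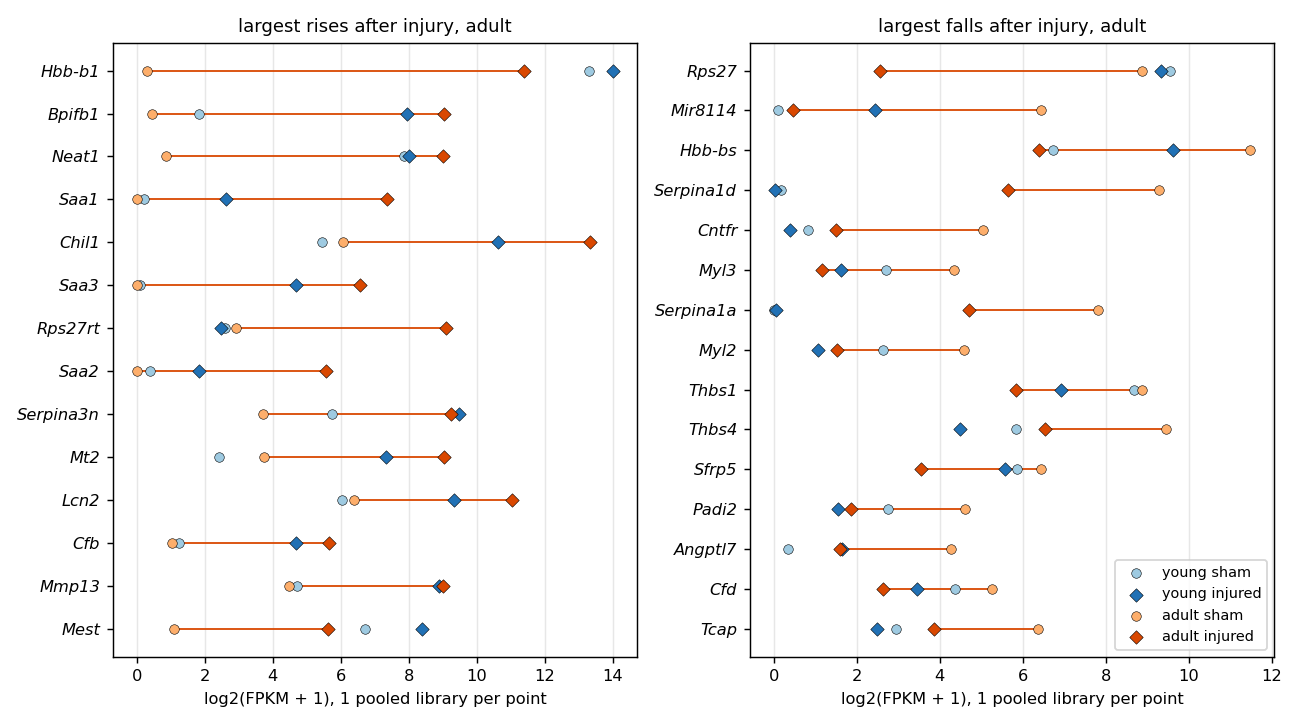
Level in the 4 libraries of genes with the largest rise (left) and the largest fall (right) in adult cartilage. The x axis is log2(FPKM + 1), circles are sham and diamonds injured, blue is young and orange adult, each point is 1 pooled library, and the line joins the adult pair. Chil1 and Lcn2 end above the young injured library, while Neat1, Hbb-b1 and Mest are lowest in adult sham cartilage. Hbb-b1 and Mest are also lower in adult injured than in young sham cartilage.

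The largest rises, taken over genes whose adult mean was 5 FPKM or more, held many genes of secreted defence. Among them were, in descending order, Hbb-b1, Bpifb1, Neat1, Saa1, Chil1, Saa3, Rps27rt, Saa2, Serpina3n, Mt2, Lcn2, Cfb, Mmp13 and Mest. The largest falls were those of Rps27, Mir8114, Hbb-bs, Serpina1d, Cntfr, Myl3, Serpina1a, Myl2, Thbs1, Thbs4, Sfrp5, Padi2, Angptl7, Cfd and Tcap. Of the 1255 higher genes, 589 (46.9%) were also at least 2-fold above young sham cartilage in adult injured cartilage, and of the 266 lower genes 76 (28.6%) were at least 2-fold below it. After scaling these were 502 (62.6%) of 802 and 110 (20.9%) of 527. Over all 18181 measured genes, 1044 were at least 2-fold above young sham cartilage and 754 below it, or 1147 and 626 after scaling. The adult injured library enters both comparisons, so the second is no independent check of the first. Neat1, a nuclear long noncoding RNA that builds paraspeckles, was at 0.828 FPKM in adult sham cartilage, 518.1 FPKM in adult injured, 234.1 FPKM in young sham and 257.4 FPKM in young injured cartilage. The adult sham library alone was low. Mest, an imprinted gene active in growing tissue, had 1.14 FPKM in adult sham and 47.98 FPKM in adult injured cartilage, but 105.0 FPKM in young sham and 333.7 FPKM in young injured cartilage. Tcap, Myl2 and Myl3 are genes of the muscle sarcomere, and they fell together with the muscle markers described further on.

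**Figure D2:**
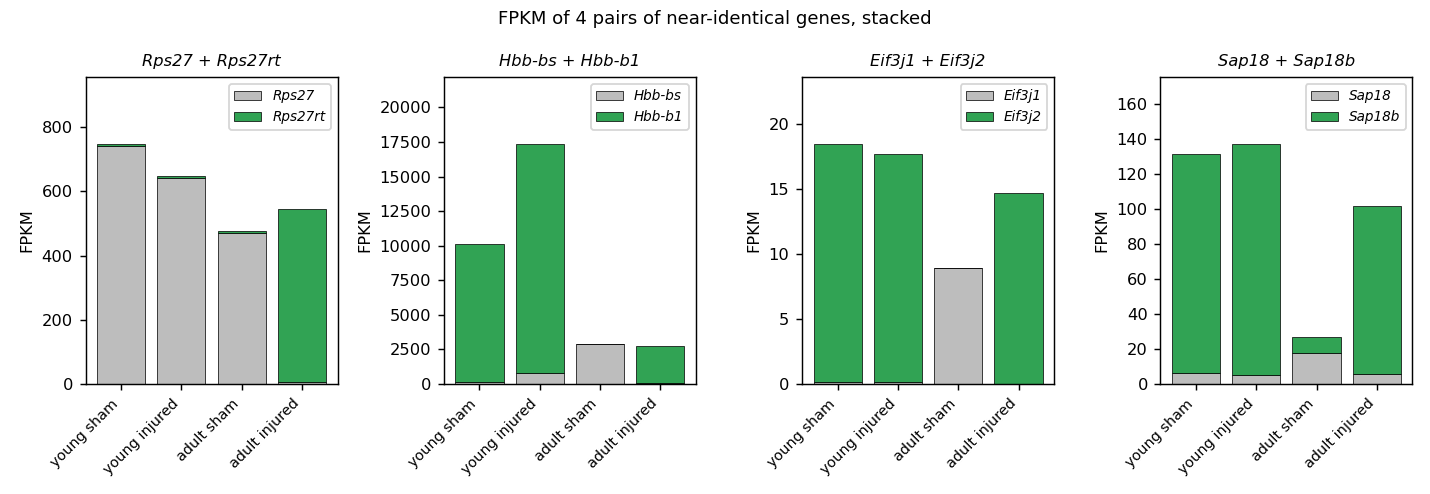
FPKM in the 4 libraries of 4 pairs of near-identical genes, stacked so that the bar height is the sum of the pair. The green and grey parts change places between adult sham and adult injured cartilage, while the summed height changes much less for Rps27 with Rps27rt and for Hbb-bs with Hbb-b1.

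A few of the largest changes were exchanges between near-identical genes. Rps27, a ribosomal protein gene, fell from 469.5 FPKM in adult sham to 4.93 FPKM in adult injured cartilage, and its retrocopy Rps27rt rose from 6.65 to 541.1 FPKM. Their sum was 476.2 FPKM in adult sham and 546.0 FPKM in adult injured cartilage, a log2 ratio of 0.197 (-0.14 scaled). Rps27rt shares 92.7% of its 31-base transcript words with another gene. In the same way Hbb-bs, a beta globin gene of erythroid cells, went from 2868 to 83.4 FPKM, while Hbb-b1 went from 0.244 to 2676 FPKM. The pair together had 2868 FPKM in adult sham and 2759 FPKM in adult injured cartilage. Eif3j2 was listed at 0 in adult sham and at 14.7 FPKM in adult injured cartilage, and its copy Eif3j1 went from 8.96 to 0.0157 FPKM; the sum had a log2 ratio of 0.66 (0.35 scaled). Sap18b was at 9.07 and 96.1 FPKM and Sap18 at 17.96 and 5.62 FPKM, and here the sum still rose, by 1.87 (1.55 scaled) on the log2 scale, from 27.02 to 101.8 FPKM. The young libraries held 131.4 and 136.9 FPKM, so the adult sham library was the low one. The single values of these genes are uncertain. Of the 17576 measured genes with a transcript in the reference, 811 share at least 50% of their words with another gene. Of these 811, 53 were among the 1255 higher and 22 among the 266 lower genes.

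Mir8114, a microRNA gene, was listed at 86.4 FPKM in adult sham and 0.377 FPKM in adult injured cartilage. The libraries hold poly-A selected RNA, so this is not a level of the mature microRNA, and 77.8% of the words of its short hairpin also occur in another gene.

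Genes of the acute phase and of secreted defence, proteins that the liver and injured tissue release to bind iron, microbes and proteases, rose strongly. Of 19 measured genes of this list, 13 were at least 2-fold higher in injured adult cartilage, none was lower and 6 were neither, with a median log2 ratio of 2.34 against 0.14 over all measured genes. After scaling, 11 were higher and the median was 2.01. Like the other lists, this one was chosen with earlier results of these data known. It holds Bpifb1, Chil1, Lcn2, Saa1, Saa2 and Saa3 from the largest rises, so its count and median describe these members and do not test the class. Chil1 (chromosome 1, 134182156 to 134190031 on GRCm38.p6, to which mm10 corresponds) encodes a chitinase-like glycoprotein made by chondrocytes, macrophages and neutrophils. It had 42.4 FPKM in young sham, 1576 FPKM in young injured, 66.5 FPKM in adult sham and 10398 FPKM in adult injured cartilage, a log2 ratio in adults of 7.27 (6.93 scaled). Both injured libraries lay above both sham libraries, and the adult injured library was highest. Lcn2 (chromosome 2, 32384637 to 32387739), an iron-trapping lipocalin, followed the same order with 64.6, 639.2, 82.7 and 2117 FPKM and an adult ratio of 4.66 (4.33 scaled). Bpifb1 (chromosome 2, 154190818 to 154220343), a secreted protein related to bactericidal permeability proteins, was at 2.58, 245.9, 0.356 and 527.6 FPKM.

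The serum amyloid A genes were almost silent in sham cartilage. Saa1 (chromosome 7, 46740497 to 46743181) was at 0.157 FPKM in young sham and 5.13 FPKM in young injured cartilage; in adults it was listed at 0 without injury and stood at 164.4 FPKM with it. Saa3, the form made outside the liver, had 0.0719 and 24.6 FPKM in young sham and injured cartilage, 0 in adult sham and 94.9 FPKM in adult injured cartilage. Saa2 reached 46.1 FPKM in adult injured cartilage from a listing at 0. Saa1 shares 46.8% and Saa2 44.5% of its words with other genes, so the pair is best read as a sum, which was 0.469, 7.69, 0 and 210.5 FPKM in the young sham, young injured, then adult sham and adult injured libraries. The remaining risers included Tnfaip6, which crosslinks hyaluronan with inter-alpha-inhibitor, from 1.11 to 13.5 FPKM, Slpi, an inhibitor of leucocyte elastase, from 4.19 to 31.8 FPKM, Lrg1 from 2.84 to 19.8 FPKM, Hp, the haemoglobin-binding haptoglobin, from 30.6 to 159.0 FPKM, and Steap4 from 10.4 to 50.1 FPKM. Chil3 and Ptx3 passed 2-fold only as deposited, with 1.02 (0.69 scaled) and 1.11 (0.96 scaled). Itih4, Orm1 and Orm2, further acute phase genes of the liver, were all below 1 FPKM in both adult libraries. Macrophage markers, which are described below, rose in the same comparison; their part in these rises was not tested.

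Serpina3n, Mt2, Cfb and Mmp13 completed the induced genes among the 15 largest rises. Serpina3n, a serine protease inhibitor, was at 52.6, 715.7, 12.1 and 611.1 FPKM, and both injured libraries were above both sham libraries. Mt2, a metallothionein that binds zinc and copper, was at 4.32, 159.9, 12.5 and 529.7 FPKM. Cfb, complement factor B, was at 1.37, 24.6, 1.04 and 49.9 FPKM, and 75.5% of its words also occur in another gene, so its value is uncertain. Mmp13, the collagenase that cuts type II collagen, was at 25.3, 473.7, 21.2 and 518.2 FPKM. For Mmp13 and Serpina3n the injured libraries of both ages ended at a similar level.

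Promoters of 3 of these strongly raised genes, which rose at both ages, are shown as examples. They are RefSeq windows of 300 bases on GRCm38.p6, from 250 bases before the annotated start to 50 after it, all on the plus strand, and capitals mark matches to searched motifs: AP-1 (TGAGTCA), the TATA box (TATAAA), the metal response core (TGCACNC or TGCGCNC) and the kB motif, each read on both strands. No match overlaps another in these 3 windows. Chil1 is chr1:134181906-134182205, Mt2 is chr8:94172368-94172667 and Mmp13 is chr9:7272264-7272563.
Chil1: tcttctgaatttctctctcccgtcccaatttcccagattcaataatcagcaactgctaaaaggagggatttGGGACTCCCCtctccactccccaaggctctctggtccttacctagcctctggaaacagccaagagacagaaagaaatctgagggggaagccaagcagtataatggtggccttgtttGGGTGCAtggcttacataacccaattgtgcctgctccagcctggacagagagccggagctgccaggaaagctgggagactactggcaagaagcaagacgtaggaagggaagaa
Mt2: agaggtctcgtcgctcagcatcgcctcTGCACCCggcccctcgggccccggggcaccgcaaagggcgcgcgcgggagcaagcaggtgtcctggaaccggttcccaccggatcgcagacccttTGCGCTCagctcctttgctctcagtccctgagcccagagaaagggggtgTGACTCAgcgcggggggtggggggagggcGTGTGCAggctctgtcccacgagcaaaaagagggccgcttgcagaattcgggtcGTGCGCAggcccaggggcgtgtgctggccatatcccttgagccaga
Mmp13: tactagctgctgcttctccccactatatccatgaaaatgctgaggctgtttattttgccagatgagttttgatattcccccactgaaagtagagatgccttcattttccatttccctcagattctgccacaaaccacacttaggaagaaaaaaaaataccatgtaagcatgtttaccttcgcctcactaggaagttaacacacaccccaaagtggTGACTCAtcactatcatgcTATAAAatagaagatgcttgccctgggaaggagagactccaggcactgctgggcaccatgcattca
In Mmp13 an AP-1 match begins 35 bases and a TATA box match 16 bases before the annotated start. Mt2 holds 1 AP-1 match, 79 bases before the start, and 4 matches to the metal response core. Chil1 holds 1 kB match, 179 bases before the start, and 1 match to the metal response core. Of all 32851 RefSeq windows, 5.20% hold the AP-1 letters, 13.6% the TATA box, 12.6% and 15.4% the first and the second metal response core and 8.46% the kB motif. Of the 11 genes of the 15 largest rises with a window, 2 hold AP-1 (Mmp13 and Mt2) and 2 hold kB (Bpifb1 and Chil1), and of 12 genes of the largest falls 3 hold AP-1 (Hbb-bs, Serpina1a and Serpina1d) and 2 hold kB (Cntfr and Padi2). The windows of Lcn2, Serpina3n, Saa1, Saa2 and Saa3, which also rose at both ages, hold no match to any searched motif. A match describes the letters only. STAT (TTCNNNGAA) and C/EBP (TTGCGCAA) letters were in 8.30% and 0.183% of all windows, and in 1 (Bpifb1) and 0 of the 11, while the first metal response core was in 4 of the 11 and in 1 of the 12 falls, the second in 1 and in 3, and the TATA box in 1 and in 1. Of 17 genes of the acute phase list with a window, 6 hold STAT, 6 the TATA box, 5 kB and 2 AP-1. C/EBP and each metal response core were in 1 of these 17.

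**Figure D3:**
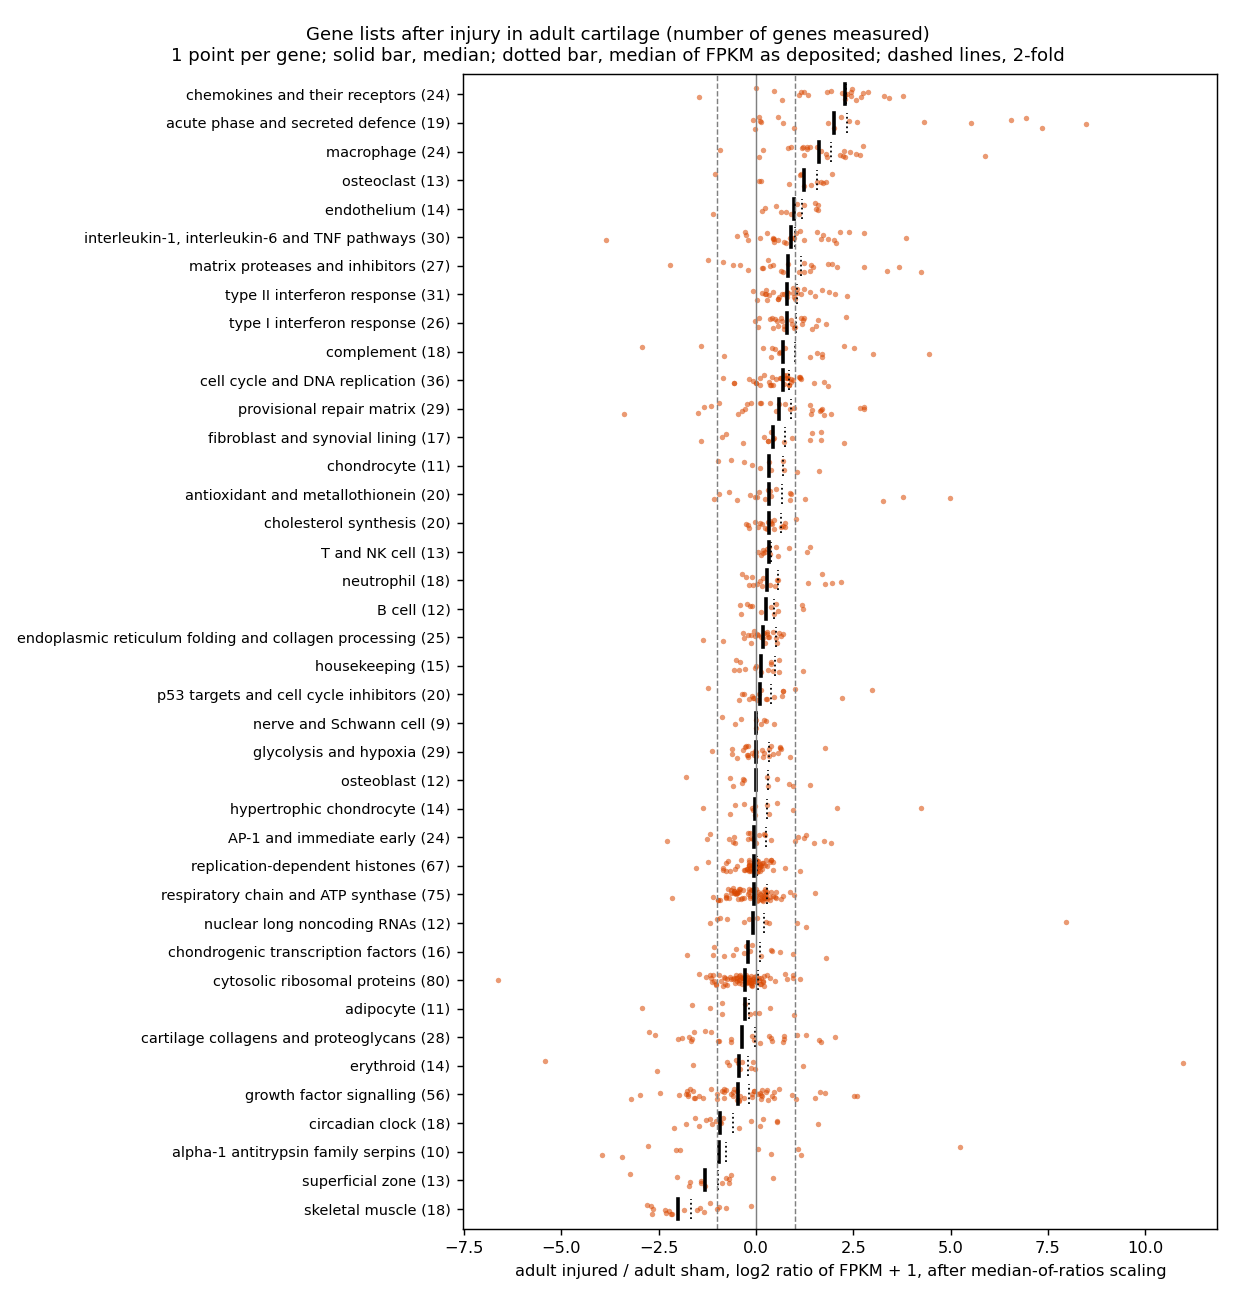
Log2 ratio of FPKM + 1, adult injured over adult sham after median-of-ratios scaling, for the members of 40 gene lists (1 point per gene, number of measured genes in parentheses). Solid bars are list medians after scaling, dotted bars list medians of FPKM as deposited and dashed lines 2-fold; chemokine, acute phase, macrophage and osteoclast lists lie to the right, and muscle, superficial zone, serpin and clock lists to the left.

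Genes of macrophages rose as a group. Of 24 measured markers, 21 were at least 2-fold higher in adult injured cartilage (19 after scaling) and none was lower, with a median log2 ratio of 1.93 (1.61 scaled). Their summed level was 411.2 FPKM in adult sham and 2149.6 FPKM in adult injured cartilage. Lyz2, the lysozyme of myeloid cells, rose from 183.2 to 1090.0 FPKM, Ccr2, the receptor of recruited monocytes, from 1.37 to 17.3 FPKM, and Adgre1, which encodes F4/80, from 3.22 to 16.8 FPKM. Markers of resident macrophages were split: Folr2 rose from 10.8 to 35.3 FPKM and the mannose receptor Mrc1 from 2.05 to 7.101 FPKM, whereas Lyve1 did not pass 2-fold. The other markers that did not pass were the scavenger receptors Cd163 and Marco, and each of the 3 was below 3 FPKM in both adult libraries. Lyve1 had a ratio of -0.68 (-0.93 scaled). Marco was at 0 in adult sham cartilage, and no macrophage marker was at 0 in adult injured cartilage.

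Neutrophil genes moved less. Of 18 measured, 5 were higher at least 2-fold under both scalings and none was lower, and the median was 0.56 (0.27 scaled). The 5 were Mmp9, Stfa2l1, Csf3r, Trem1 and Cxcr2. The alarmins S100a8 and S100a9 were already high in adult sham cartilage, with 591.2 and 695.8 FPKM, and were at 654.9 and 820.7 FPKM after injury. None of the 4 genes of primary granules, which are made by immature cells in the marrow, passed 2-fold. Elane, the neutrophil elastase, was at 37.98 and 37.04 FPKM, Mpo, the myeloperoxidase, at 24.7 and 29.3 FPKM, Prtn3 at 22.8 and 23.9 FPKM and Ctsg, cathepsin G, at 3.17 and 6.29 FPKM, the last with a ratio of 0.81 (0.54 scaled). B cell markers (2 of 12 higher, Ms4a1 and Blnk, under both scalings) and T and NK cell markers (2 of 13, Gzma and Nkg7) were low throughout. The highest T or NK marker in adult injured cartilage was Nkg7, at 3.796 FPKM, and Cd3e was at 0.176 FPKM.

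Chemokines and their receptors formed the list with the highest scaled median. Of 24 measured, 20 were at least 2-fold higher, Ackr3 was lower, and 3 were neither, as deposited and after scaling alike, and the median was 2.32 (2.28 scaled). Ccl2, the main attractant of monocytes, was listed at 0 in adult sham cartilage and was at 13.04 FPKM in adult injured cartilage, against 0.0948 and 34.1 FPKM in the young pair. Ccl6 rose from 2.34 to 37.9 FPKM and Ccl9 from 1.02 to 23.4 FPKM. The attractants of neutrophils Cxcl1, Cxcl2, Cxcl3 and Cxcl5 were all listed at 0 in adult sham cartilage and were at 6.42, 4.4996, 3.93 and 2.87 FPKM after injury. In young injured cartilage the same 4 genes were at 2.66, 0.811, 1.46 and 2.08 FPKM. Ackr3, a scavenging receptor for Cxcl12, fell from 104.0 to 47.3 FPKM. Macrophages make many chemokines, and the part of the macrophage markers in these values was not tested.

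Genes of inflammatory cytokines and of their receptors and inhibitors rose in part. Of 30 measured genes of the interleukin-1, interleukin-6 and TNF pathways, 15 were higher (13 after scaling) and 1 was lower, and the median was 1.01 (0.91 scaled). The largest ratio of the list was that of the cytokine Il1b. It was at 0.394 FPKM in young sham, 8.27 FPKM in young injured, 0.453 FPKM in adult sham and 22.2 FPKM in adult injured cartilage, with an adult ratio of 3.995 (3.86 scaled). The receptor antagonist Il1rn rose from 0.246 to 5.97 FPKM and the decoy receptor Il1r2 from 0.636 to 6.36 FPKM. Il6 was at 0 in the sham libraries of both ages and at 0.937 FPKM in adult injured cartilage, whereas Il11, a cytokine of the same family, rose from 0.2504 to 4.58 FPKM. Tnf was at 0.335 and 1.81 FPKM, 1.07 (0.97 scaled). Downstream, Stat3, the transcription factor of interleukin-6 type receptors, rose from 11.1 to 48.6 FPKM and its inhibitor Socs3 from 4.67 to 29.7 FPKM. Among the receptors, Osmr rose from 7.26 to 31.2 FPKM and Il4ra from 1.19 to 16.3 FPKM, while the shared subunit Il6st was at 29.5 and 30.6 FPKM. The receptors Il6ra and Tnfrsf1a did not pass 2-fold, with 0.88 (0.72 scaled) and 0.89 (0.56 scaled). The gene that fell was Cntfr, the receptor subunit for ciliary neurotrophic factor, from 31.9 to 1.85 FPKM. In the young libraries Cntfr was below 1 FPKM. Macrophages and other myeloid cells express several of these genes, and the part of the macrophage markers in these rises was not tested.

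Immediate early and stress genes were mixed. Of 24 genes around AP-1, 7 were higher under both scalings, led by Ier5, Ier3 and Junb, and 1 was lower (3 after scaling). Junb rose from 15.8 to 57.9 FPKM and Fosl2 from 3.44 to 12.1 FPKM, while Fos and Jun had ratios of 0.39 (0.07 scaled) and 0.296 (-0.01 scaled). Nr4a1, an immediate early nuclear receptor, fell from 39.8 to 9.45 FPKM. Of 20 p53 targets and cell cycle inhibitors 3 were higher under both scalings, Gadd45a from 6.81 to 74.9 FPKM, Cdkn1a, which encodes p21, from 8.03 to 50.3 FPKM, and Cdkn1c from 22.8 to 59.2 FPKM. After scaling Cdkn2a, which encodes p16, was lower, with 4.82 and 2.01 FPKM.

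Complement genes of the classical and the alternative pathway were among the risers. Of 18 measured, 9 were higher (8 after scaling) and 2 lower, with a median of 0.99 (0.69 scaled). C3, the central component, was at 4.15 FPKM in young sham, 10.8 FPKM in young injured, 3.93 FPKM in adult sham and 47.04 FPKM in adult injured cartilage, so that the adult injured library stood well above the other 3. C4b rose from 33.2 to 138.4 FPKM and the macrophage product C1qa from 14.1 to 89.7 FPKM. The receptor C3ar1 rose from 1.66 to 16.9 FPKM. C1qa, C1qb and C1qc are also macrophage markers, whose part was not tested. The 2 genes that fell were Cfd, the adipocyte protease also called adipsin, from 37.1 to 5.23 FPKM, and Clu, a chaperone of the cartilage surface, from 3116 to 1468 FPKM.

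Interferon response genes rose in part, and none fell. Of 26 measured type I genes, 13 were higher (9 after scaling) and none was lower in adult cartilage, with a median of 1.03 (0.797 scaled), beside 23 of 26 and 1.94 (1.87 scaled) in young cartilage. After scaling the young ratio exceeded the adult one for 25 of these 26. Zbp1, a sensor of nucleic acids, rose from 0.4602 to 6.95 FPKM, Oasl2 from 0.8401 to 6.18 FPKM and Irf7, the factor that amplifies the response, from 5.47 to 16.7 FPKM. Ifit3 and Ifit3b, which were called in young cartilage, had adult ratios of 0.28 (-0.03 scaled) and 0.36 (0.08 scaled), and both stood higher in adult than in young sham cartilage (9.93 against 1.84 FPKM and 4.21 against 1.12 FPKM). They share 61.8% and 55.2% of their words with other genes, so their single values are uncertain. Of 31 type II genes, 16 were higher (10 after scaling) and none was lower, with a median of 1.05 (0.799 scaled), beside 18 of 31 and 1.14 (1.13 scaled) in young cartilage. Here the adult ratio was the larger one for 13 of the 31 as deposited and for 9 after scaling. Within this list, after Cxcl10, the genes of MHC class II had the highest scaled ratios. Cd74, the invariant chain, rose from 26.5 to 139.3 FPKM, H2-Aa from 19.9 to 94.5 FPKM and H2-Eb1 from 12.6 to 53.3 FPKM. In young cartilage Cd74 went from 28.8 to 76.3 FPKM, a ratio of 1.37 (1.36 scaled) beside 2.35 (2.02 scaled) in adults. The young ratios of H2-Aa, H2-Eb1 and H2-Ab1 were 2.23 (2.204 scaled), 2.101 (2.07 scaled) and 1.72 (1.69 scaled), beside 2.19 (1.86 scaled), 2.002 (1.68 scaled) and 1.85 (1.52 scaled) in adults, so that after scaling only Cd74 of these 4 had the larger ratio in adults. The MHC class I gene H2-D1 went from 186.1 to 237.8 FPKM and stayed within 2-fold. Macrophages carry MHC class II, and the part of their markers in these rises was not tested.

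**Figure D4:**
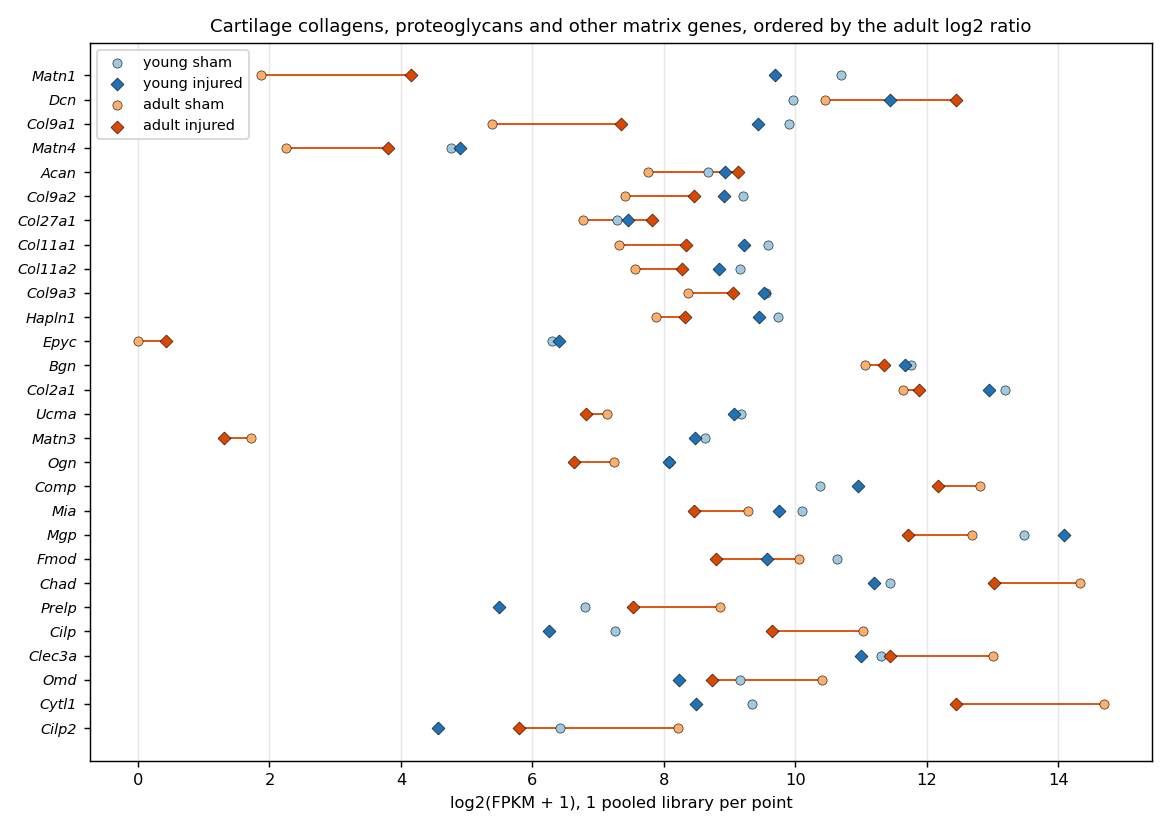
Level in the 4 libraries of 28 genes of cartilage collagens, proteoglycans and other matrix proteins, ordered by the adult log2 ratio. The x axis is log2(FPKM + 1), circles are sham and diamonds injured, blue is young and orange adult, each point is 1 pooled library, and the line joins the adult pair; adult injured cartilage lies above adult sham for Matn1, Dcn, Col9a1, Matn4 and Acan, and below it for the 8 genes from Fmod to Cilp2, under both scalings, while the sign of Col2a1 depends on the scaling.

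Cartilage matrix genes moved in both directions. Of 28 measured, 8 were higher and 8 lower as deposited, 5 and 10 after scaling, and the median was -0.04 (-0.37 scaled). The genes that rose under both scalings were Matn1, Dcn, Col9a1, Matn4 and Acan. Acan, the large proteoglycan that holds water, was at 405.3 FPKM in young sham, 487.1 FPKM in young injured, 214.4 FPKM in adult sham and 559.0 FPKM in adult injured cartilage, so that the adult sham library was the lowest of the 4. Col9a1, a collagen on the surface of type II fibrils, went from 40.9 to 161.5 FPKM, but stayed under the young sham level of 955.4 FPKM. Matn1, a matrilin of growing cartilage, went from 2.65 to 16.8 FPKM in adults and from 1661 to 823.4 FPKM in young mice. Dcn, decorin, a proteoglycan of fibrous tissue as well, rose from 1393 to 5555 FPKM in adults and from 1001 to 2786 FPKM in young mice. Col2a1 itself had an adult ratio of 0.24 (-0.098 scaled), and its sign thus depended on the scaling. Col11a1, Col9a2 and Col27a1 were called only as deposited, with 1.02 (0.69 scaled), 1.06 (0.72 scaled) and 1.05 (0.72 scaled).

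The matrix genes that fell were mostly those that were more abundant in adult than in young sham cartilage. Cytl1, a small secreted protein of chondrocytes, was the most abundant gene of the adult sham library at 26541 FPKM and was at 5550.2 FPKM in adult injured cartilage, 648.1 FPKM in young sham and 359.7 FPKM in young injured cartilage. Its adult ratio was -2.26 (-2.596 scaled). Chad, chondroadherin, which anchors cells to collagen, went from 20538 to 8281 FPKM, with 2781 and 2348 FPKM in the young pair. Cilp2 and Cilp, proteins of the middle zone, went from 295.7 to 54.4 FPKM and from 2093 to 795.2 FPKM. Clec3a fell from 8255 to 2768 FPKM, and the leucine-rich proteoglycans Omd, Prelp and Fmod from 1348 to 425.7 FPKM, 461.7 to 183.0 FPKM and 1057 to 444.2 FPKM. Of these 8 genes only Fmod was higher in young than in adult sham cartilage, at 1589.6 FPKM. After scaling Mgp and Mia were lower as well, with -1.31 and -1.16. Mgp, an inhibitor of mineralization, was at 11419.9 and 17434 FPKM in young sham and injured cartilage.

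Genes of the superficial zone fell in part. Of 13 measured, 6 were lower (7 after scaling) and none was higher, with a median of -0.98 (-1.32 scaled). Thbs4, a thrombospondin of tendon and cartilage surface, was at 55.9 FPKM in young sham, 21.5 FPKM in young injured, 695.5 FPKM in adult sham and 91.8 FPKM in adult injured cartilage. Vit fell from 371.5 to 114.1 FPKM and Htra4 from 117.6 to 44.99 FPKM. Prg4, the lubricant, stayed within 2-fold in adults, from 3565 to 2658 FPKM (-0.42, -0.76 scaled), whereas in young cartilage it went from 2049 to 421.3 FPKM (-2.28, -2.295 scaled). Dpt and Cilp, members of this list, are made by fibroblasts as well. Cilp, described above as a protein of the middle zone, counts among the genes of this list that fell.

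Among 14 genes of hypertrophic chondrocytes, 3 were higher (2 after scaling) and 1 lower. Col10a1, the collagen that marks hypertrophy, was at 337.9 FPKM in young sham, 302.2 FPKM in young injured, 458.7 FPKM in adult sham and 2446 FPKM in adult injured cartilage, a ratio of 2.41 (2.07 scaled) in adults and -0.16 (-0.18 scaled) in young mice. Only the adult injured library was high. Mmp13 was the other gene raised under both scalings, and Runx2, the factor that drives both programmes, was called only as deposited, with 1.21 (0.95 scaled). Ihh, the signal of prehypertrophic cells, fell from 16.6 to 7.55 FPKM. Ibsp and Alpl, genes of mineralizing cells, were at 4136 and 4218 FPKM and at 676.4 and 536.8 FPKM. Of 16 chondrogenic transcription factors 2 were higher and 1 lower, 1 and 3 after scaling. Foxa2 rose under both scalings, from 2.996 to 15.5 FPKM, and Nfatc2, a factor that restrains joint degeneration, fell from 5.21 to 1.203 FPKM. Sox9, Sox5 and Sox6 had ratios of 0.01 (-0.32 scaled), 0.66 (0.37 scaled) and 0.14 (-0.16 scaled), against -0.71 (-0.73 scaled), -0.78 (-0.79 scaled) and -0.68 (-0.69 scaled) in young cartilage.

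Genes of the provisional repair matrix rose in part. Of 29 measured, 14 were higher (11 after scaling), 2 lower (4 after scaling) and 13 neither (14 after scaling), with a median of 0.89 (0.58 scaled). Their summed level was 25408 FPKM in adult sham and 19602 FPKM in adult injured cartilage, most of it Sparc, a collagen-binding matrix protein, at 22039 and 11027 FPKM. Fn1, fibronectin, was at 226.3 FPKM in young sham, 1869 FPKM in young injured, 441.8 FPKM in adult sham and 3803 FPKM in adult injured cartilage, and the adult injured library was highest. Timp1 rose from 53.05 to 461.1 FPKM, Cd44, the hyaluronan receptor, from 5.43 to 28.99 FPKM and Postn from 13.8 to 56.8 FPKM. The fibrous collagens Col1a1 and Col3a1 rose, Col1a1 from 223.2 to 740.6 FPKM and Col3a1 from 238.5 to 810.9 FPKM. Cthrc1 rose in adults only, from 5.26 to 47.9 FPKM, to a level that stayed below the 123.7 and 95.95 FPKM of the young pair. Thbs1, the thrombospondin that activates latent TGF-β, fell at both ages, from 470.0 to 55.8 FPKM in adults and from 412.0 to 119.9 FPKM in young mice. The plasminogen activator Plau and its receptor Plaur rose, the former from 2.11 to 11.4 FPKM and the latter from 4.83 to 22.1 FPKM. Macrophage markers and some fibroblast markers rose in the same comparison, and their part in these rises was not tested.

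Several proteases that cut matrix rose, and so did their inhibitor Timp1. Of 27 measured genes, 14 were higher (13 after scaling) and 1 lower (2 after scaling), with a median of 1.16 (0.82 scaled). Mmp3, stromelysin, was at 4.99 FPKM in young sham, 151.5 FPKM in young injured, 41.2 FPKM in adult sham and 673.4 FPKM in adult injured cartilage. Adult injured cartilage thus held the most. Mmp14, which activates other MMPs, rose from 38.5 to 135.5 FPKM, and the macrophage cathepsin Ctss from 14.1 to 194.4 FPKM. Of the aggrecanases, Adamts4 rose from 0.325 to 2.77 FPKM, while Adamts5 went from 4.35 to 3.32 FPKM and stayed within 2-fold. Timp4 fell from 5.77 to 0.759 FPKM. Cst3, cystatin C, an abundant inhibitor of cathepsins, was at 23432 and 12611 FPKM and passed 2-fold only after scaling (-1.23).

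Osteoclast genes were raised in adult injured cartilage. Of 13 measured, 10 were higher (9 after scaling) and none was lower (1 after scaling), with a median of 1.56 (1.23 scaled). Acp5, the tartrate-resistant acid phosphatase, was at 122.4, 305.6, 178.6 and 713.2 FPKM in the young sham, young injured, then adult sham and adult injured libraries, Ctsk, the collagen-cutting cathepsin of osteoclasts, at 87.4, 170.8, 135.9 and 403.3 FPKM, and the proton pump subunit gene Atp6v0d2 at 2.403, 7.15, 3.15 and 16.5 FPKM. For all 3 genes the adult injured library was highest. Dcstamp and Ocstamp, needed for osteoclast fusion, rose, the former from 0.609 to 4.24 FPKM and the latter from 0.843 to 5.91 FPKM. The ligand Tnfsf11 (RANKL) passed 2-fold only as deposited, from 1.001 to 3.08 FPKM, and its decoy receptor Tnfrsf11b (osteoprotegerin) was lower only after scaling, from 346.7 to 210.4 FPKM. Calcr, the calcitonin receptor of mature osteoclasts, was below 1 FPKM. Macrophages share Acp5, Ctsk and Mmp9 with osteoclasts, and the macrophage list rose in the same comparison; its part in these values was not tested. Of 12 osteoblast genes 3 were higher and 1 lower as deposited, beside 6.90% and 1.46% of all measured genes, and after scaling Col1a1 was higher and Sost, the osteocyte inhibitor of bone formation, lower. Sost fell from 25.97 to 8.67 FPKM. Bglap, osteocalcin, was at 449.3 and 453.1 FPKM.

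Markers of vessels and fibroblasts rose in part. Of 14 endothelial genes, 9 were higher (7 after scaling) and none was lower as deposited, while Ramp2 was lower after scaling. The endothelial median was 1.18 (0.97 scaled). Cdh5, the cadherin of endothelial junctions, rose from 1.37 to 6.803 FPKM, Plvap from 7.61 to 30.01 FPKM and Emcn from 2.03 to 9.85 FPKM. Of 17 genes of fibroblasts and synovial lining 6 were higher (5 after scaling) and Dpt was lower, with Lum, the keratan sulphate proteoglycan lumican, rising from 129.1 to 778.4 FPKM and Has1, a hyaluronan synthase of synovium, from 3.83 to 17.7 FPKM. The defining fibroblast receptor Pdgfra was at 15.4 and 26.6 FPKM and Pdgfrb at 18.6 and 18.5 FPKM.

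The alpha-1 antitrypsin genes, inhibitors of neutrophil elastase, fell together. All 5 mouse genes, Serpina1a to Serpina1e, were lower under both scalings. Together they had 1758 FPKM in adult sham and 351.3 FPKM in adult injured cartilage, a log2 ratio of -2.32 (-2.66 scaled), and only 0.488 and 0.2704 FPKM in the young pair. Serpina1b was the most abundant, at 700.2 and 228.4 FPKM, and Serpina1d fell most, from 621.0 to 49.2 FPKM. These genes share most of their sequence (64.7% of the words of Serpina1d), so their single values, here and in the rankings, are uncertain. Their sum is the value to read. In the related Serpina3 cluster, which is not nearly identical to it, Serpina3n, Serpina3g and Serpina3m rose under both scalings, the last 2 to 1.76 and 1.36 FPKM.

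Signals of growth and patterning fell more often than they rose. Of 56 measured genes of growth factor pathways, 7 were higher (6 after scaling) and 14 lower (16 after scaling), with a median of -0.17 (-0.47 scaled). In the hedgehog pathway, the ligand Ihh, the target and effector Gli1 and the inhibitor Hhip fell, Gli1 from 54.5 to 18.9 FPKM in adults and from 37.6 to 12.96 FPKM in young mice, and Hhip from 16.1 to 5.24 FPKM and from 26.5 to 2.44 FPKM. Gli2 fell from 7.84 to 2.33 FPKM, and the receptor Ptch1 passed 2-fold only after scaling, from 16.4 to 9.86 FPKM. Of the BMP genes, Bmp6 fell from 13.1 to 2.12 FPKM and the antagonist Grem1 from 49.98 to 19.9 FPKM, while Bmp2 went from 7.9999 to 11.4 FPKM. In young cartilage Grem1 rose, from 4.86 to 12.2 FPKM. The Wnt antagonists Sfrp5 and Dkk3 fell from 85.9 to 10.7 FPKM and from 31.9 to 9.38 FPKM, and Fgf18, a growth factor that thickens cartilage, from 7.16 to 2.4004 FPKM. Ctgf and Cyr61, targets of the Yap factor, fell from 3904 to 1619 FPKM and 434.3 to 161.2 FPKM. The genes that rose under both scalings were Angptl4, Wisp2, Igfbp3, Inhba, Igf1 and Tgfb2. Angptl4, an inhibitor of lipoprotein lipase, went from 3.46 to 31.5 FPKM, and Igf1 from 0.303 to 3.37 FPKM, with 6.95 and 8.96 FPKM in the young pair.

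Several genes of the circadian clock, the transcriptional loop that times daily rhythms, were lower in injured adult cartilage. Of 18 measured, 4 were lower as deposited and 8 after scaling, 1 was higher, and the median was -0.596 (-0.92 scaled). Dbp, an output gene of the clock, was at 35.2 FPKM in young sham, 13.3 FPKM in young injured, 188.2 FPKM in adult sham and 54.7 FPKM in adult injured cartilage, and Nr1d1, which encodes the repressor REV-ERBα, at 37.6, 16.7, 130.9 and 46.9 FPKM. Adult sham cartilage held the most of both. Ciart and Hlf fell too. Nfil3, which opposes Dbp, rose from 0.825 to 5.24 FPKM. Arntl, which encodes the core activator BMAL1, had a ratio of 0.18 (-0.12 scaled). The time of day of collection is not given in the sources used here.

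Metallothioneins and haem oxygenase rose within the antioxidant list. Of its 20 genes, 7 were higher as deposited and 4 after scaling, namely Mt2, Hmox1, Mt1 and Gpx3, and after scaling Sod1 was lower. Hmox1, which breaks down haem, was at 8.898 FPKM in young sham, 189.8 FPKM in young injured, 6.98 FPKM in adult sham and 132.9 FPKM in adult injured cartilage. Mt1 rose from 33.8 to 421.0 FPKM and Gpx3 from 222.6 to 676.9 FPKM. Nqo1, Txnrd1 and Gclm, targets of the factor Nrf2, passed 2-fold only as deposited.

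Lists of general metabolism held shares of higher genes near those of all measured genes, which were 6.90% higher and 1.46% lower as deposited. The 29 genes of glycolysis and hypoxia had a median of 0.33 (-0.01 scaled), and Car9, a carbonic anhydrase induced by hypoxia, was the one gene higher under both scalings, from 1.79 to 10.2 FPKM, while Epas1 was lower after scaling. The 75 genes of the respiratory chain had a median of 0.28 (-0.06 scaled) with 4 higher and 1 lower, 1 and 2 after scaling, and the 80 cytosolic ribosomal protein genes 0.06 (-0.28 scaled) with 5 higher and 2 lower, 1 and 10 after scaling, when 4.41% and 2.90% of all measured genes were higher and lower. The 15 housekeeping genes had a median of 0.48 (0.14 scaled), and Tfrc was the one that was called, from 11.4 to 34.5 FPKM. Of 25 genes of protein folding and collagen processing in the endoplasmic reticulum, Creb3l1 was higher only as deposited and Ddit3 lower under both scalings, and 23 of the 25 had a ratio above 0 (16 after scaling), with a median of 0.51 (0.17 scaled).

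The median ratio of cholesterol synthesis genes differed in sign between the ages. In adults the 20 genes had a median of 0.63 (0.33 scaled), with 4 higher and none lower as deposited and 1 higher after scaling, and in young mice 2 were higher and 2 lower under each scaling, and the median was -0.55 (-0.56 scaled). After scaling the adult ratio was the larger one for 18 of the 20 genes. Hmgcs1, an early enzyme of the pathway, was at 54.8 FPKM in young sham, 28.3 FPKM in young injured, 12.8 FPKM in adult sham and 25.8 FPKM in adult injured cartilage. The injured libraries lay close to each other, and the sham libraries far apart.

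Some cell cycle genes rose after injury of adult cartilage, while most did not pass 2-fold. Of 36 measured, 14 were higher as deposited and 7 after scaling, none was lower, and the median was 0.85 (0.68 scaled). Birc5, survivin, was at 11.8 FPKM in young sham, 35.8 FPKM in young injured, 2.16 FPKM in adult sham and 12.5 FPKM in adult injured cartilage. Mki67, which encodes the proliferation marker Ki-67, went from 1.38 to 4.97 FPKM, and Cdk1 from 1.53 to 7.35 FPKM. Mki67, Cdk1 and Top2a ended below the young sham level, at 13.3, 12.4 and 18.3 FPKM. Of 67 histone genes, whose transcripts mostly lack a poly-A tail, 1 was higher and 1 lower, 1 and 2 after scaling. Of 12 nuclear long noncoding RNAs, 3 were higher and none was lower, with 2 lower after scaling. The 3 were Neat1, H19 and Malat1, H19 from 37.3 to 115.9 FPKM and Malat1 from 78.6 to 208.3 FPKM, and both stayed below the young sham level of 1474 and 263.9 FPKM.

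Skeletal muscle genes fell in adult cartilage. Of 18 measured, 13 were lower (15 after scaling) and none was higher, with a median of -1.67 (-2.004 scaled). Their summed level was 1101 FPKM in young sham, 885.8 FPKM in young injured, 2116 FPKM in adult sham and 589.6 FPKM in adult injured cartilage. The adult sham library was highest. Acta1, the actin of skeletal muscle, went from 499.7 to 98.05 FPKM and Ckm, the creatine kinase of muscle, from 256.3 to 71.5 FPKM. None of the 18 genes was at 0 in either adult library. Its part in other falls of the comparison was not tested, and with the genes of the muscle, erythroid, macrophage and neutrophil lists left out, 1227 genes were higher and 250 lower. Erythroid genes, 14 measured, summed to 24686, 43601, 8385 and 6989 FPKM in the young sham, young injured, then adult sham and adult injured libraries, with 2 higher and 3 lower under both scalings, among them the globin exchange described above. Alas2, which makes haem in erythroid cells, was at 30.5 and 29.8 FPKM in adults. Adipocyte genes (1 of 11 higher and 2 lower as deposited, 0 and 3 after scaling) were low, with Adipoq, the defining marker adiponectin, at 4.54 and 1.97 FPKM. None of 9 nerve and Schwann cell genes passed 2-fold.

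**Figure D5:**
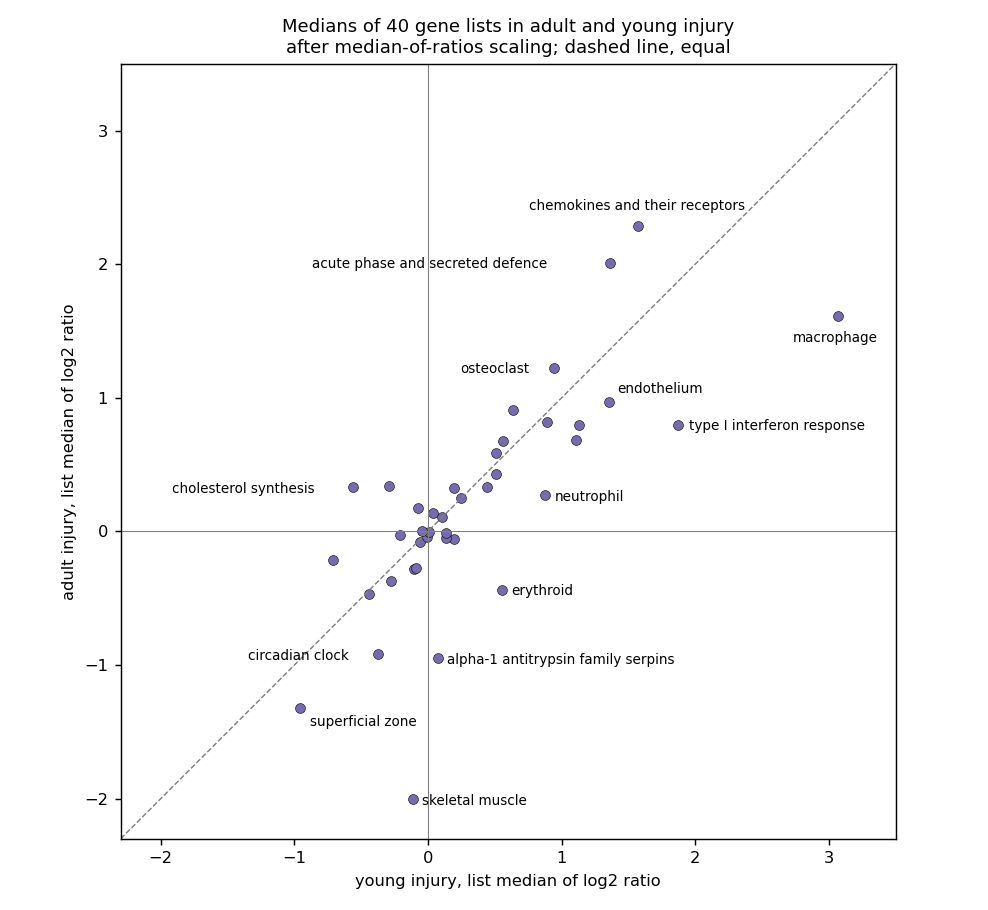
Medians of the log2 ratio of FPKM + 1, injured over sham after median-of-ratios scaling, for 40 gene lists, with young injury on the x axis and adult injury on the y axis. Each point is 1 list and the dashed line marks equal values; the medians of the acute phase and chemokine lists lie above it, and the macrophage, type I interferon, neutrophil and muscle lists below it.

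The adult response was set beside that of young cartilage, which shares no library with it. In young mice 830 genes were higher (4.57%) and 230 lower (1.27%), or 792 (4.36%) and 226 (1.24%) after scaling. Both comparisons raised 548 genes, which were 43.7% of the adult and 66.0% of the young risers, and after scaling 450, which were 56.1% and 56.8%. Both lowered 63 genes, 23.7% of the adult and 27.4% of the young ones, and 91 after scaling, 17.3% and 40.3%. The difference between the ages could not be tested with 1 library per group.

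Lists differed in which age had the larger ratio after scaling. For macrophage markers it was larger in young mice for 22 of 24 genes, with a scaled median of 1.61 in adults and 3.07 in young mice. The endothelial list had the larger ratio in young mice for 13 of 14 genes and the muscle list for 18 of 18. For osteoclast genes the ratio was larger in adults for 10 of 13, for genes of the endoplasmic reticulum for 18 of 25, and for acute phase genes for 12 of 19. The chemokine list had the higher median in adults but the larger ratio in young mice for 13 of its 24 genes, under both scalings. After scaling no gene of the endoplasmic reticulum list was called higher at either age. The split over all measured genes was not counted, so such tallies, here and above, have no base to be read against. In the injured libraries themselves, Chil1 stood 2.72 (2.84 scaled) higher in adult than in young cartilage on the log2 scale, Lcn2 1.73 (1.84), Saa1 4.75 (4.85), C3 2.02 (2.13), Mmp3 2.14 (2.26) and Col10a1 3.01 (3.13).

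Over genes whose mean in the 4 libraries was 5 FPKM or more, the scaled adult ratio exceeded the young one most for Hbb-b1, Neat1, Rps27rt, Hist2h2aa2, Saa1, Mir703, Saa2, Eif3j2, Scoc and Matn1. It fell short of the young one most for Mir8114, Hbb-bs, Rps27, Eno1b, Mir5625, Angptl7, Serpina1d, Serpina1a, Cntfr and S100a6. Hist2h2aa2, Mir5625, Eno1b, Mir8114, Eif3j2 and Rps27rt share 100%, 100%, 89.0%, 77.8%, 94.9% and 92.7% of their words with other genes. For Eno1b and Hist2h2aa2 the difference lay in the young libraries, since their adult ratios were -0.14 (-0.48 scaled) and 0.75 (0.43 scaled). S100a6, a calcium-binding protein, has no such copy. It was at 84.7 FPKM in young sham, 438.4 FPKM in young injured, 1267 FPKM in adult sham and 758.6 FPKM in adult injured cartilage, so that the young sham library was the low one. Cntfr had a scaled difference between the ages of -3.42.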

How the data were processed

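RNA was sequenced from 4 pools of mouse knee cartilage with poly-A selected, stranded libraries. The authors deposited 1 table of FPKM per gene on mm10, normalized to transcript length and mapped fragments, and every column was mapped to a sample. The submitters' processing notes name HISAT2 2.1.0, HISAT, StringTie 1.3.4d, STAR and SAMtools, without saying which made the table. Counts were not used here, so the precision from counting is unknown. Genes above 0 in at least 1 library were measured, and log2 ratios of FPKM + 1 were computed with Python 3.11.15, numpy 2.4.6 and pandas 2.3.3, with figures by matplotlib 3.10.9. A gene was called at 2-fold. Each sample was a group of 1, so nothing was tested. Median-of-ratios factors came from 15334 genes.

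Genes were named by rank: the 15 largest rises and the 15 largest falls called under both scalings with an adult mean of 5 FPKM or more, the 10 largest scaled differences between ages in each direction (mean over 4 libraries of 5 FPKM or more), and members of 40 lists; genes at the threshold and partners of near-identical genes were added after their values were seen. The members and lists were chosen with earlier results of these data known. The 31-base words that genes share were counted in GENCODE vM21 transcripts. Promoter windows and coordinates are from RefSeq, GRCm38.p6. Symbols of a list that the table lacks were not used. Some ranked or listed genes count in the ranks and lists, but their values are not reported here. Alternatives were other scalings, pseudocounts, thresholds, a filter and, chosen after seeing the data, leaving out near-identical copies or marker lists and the young sham library as reference.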

Additional observations from a re-analysis of the deposited data

Results flagged for a closer look

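Over all measured genes, 11 were higher in adults and lower in young mice after injury and 8 the reverse, by at least 2-fold at each age, and 9 and 13 after scaling. Among list members and the genes named by rank (mean of 5 FPKM or more), the 8 genes below were opposite under both scalings. With 1 library per group the difference between the ages was not tested. Each difference is the adult minus the young log2 ratio, as deposited.

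Grem1, an antagonist of bone morphogenetic proteins, had a difference of -2.46. It fell from 49.98 to 19.9 FPKM in adults and rose from 4.86 to 12.2 FPKM in young mice, and the adult libraries lay above the young ones. Matn1, a matrilin of growing cartilage, had a difference of 3.296, with 2.65 to 16.8 FPKM in adults and 1661 to 823.4 FPKM in young mice, and its level was far lower in both adult libraries. Scoc, which encodes a coiled-coil protein of the Golgi, had a difference of 3.55, with 3.97 to 18.2 FPKM in adults and 32.1 to 9.94 FPKM in young mice. Angptl7, a secreted angiopoietin-like protein, had a difference of -3.98, with 18.3 to 2.03 FPKM in adults and 0.273 to 2.15 FPKM in young mice.

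The other 4 share sequence with other genes. Hbb-bs, a beta globin gene with 54.4% of its words shared, had a difference of -7.96 and exchanged its level with Hbb-b1. Mir8114 (77.8% shared), Mir5625 (100% shared) and Mir703 (50.6% shared) are short microRNA hairpin genes in poly-A selected libraries, with differences of -8.33, -4.56 and 4.42.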

How the results depend on the processing

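Of the 312 log2 ratios of named genes, no called value changed sign after median-of-ratios scaling, as TPM, after quantile normalization or with 0.1 or 5 FPKM added. Only quantile normalization could have changed such a sign. A different added FPKM never does, and median-of-ratios scaling and TPM shift a library by less than the 2-fold of a call. As deposited, with 1 FPKM added and a threshold of 2-fold, 1255 genes were higher and 266 lower. The count of higher genes was 802 after median-of-ratios scaling, 2009 as TPM, 725 after quantile normalization, 2882 with 0.1 FPKM added, 434 with 5 FPKM added, 3262 at 1.5-fold and 442 at 3-fold. The count of lower genes was 527 after median-of-ratios scaling, 489 after quantile normalization, 656 with 0.1 FPKM added, 128 with 5 FPKM added, 720 at 1.5-fold and 84 at 3-fold. With the young sham library as reference, chosen after seeing the data, 754 genes were lower, and 626 after scaling. The filter of at least 1 FPKM in an adult library kept 12495 genes and the same 1255 and 266. With 1 FPKM added, a 2-fold call already needs that level, so this filter could not remove a called gene. Of the counts over the 40 lists, 178 moved by more than 1.5 times and 462 did not, over all alternatives run on them; the causes of these shifts were not tested. Without near-identical copies the counts were 1202 and 244. Over these alternatives 1325 of the named ratios stayed on their side of the threshold and 235 crossed it, 115 of them with 5 FPKM added, 61 after quantile normalization and 55 after median-of-ratios scaling. No paired analysis was possible because each group has 1 library. For the same reason no library could be left out, and the depth behind single values is unknown beyond the smallest steps in the values.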
